A study of Mus musculus with 12 samples.

Results

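Tudor domain proteins of the germ granules were represented by 9 genes of the deposited table, *Tdrd1*, *Tdrd5*, *Tdrd6*, *Tdrd7*, *Tdrd9*, *Tdrd12*, *Tdrkh*, *Rnf17* and *Stk31*, of 20620 genes in all. They were taken by gene symbol and not by a cut on their values, but the list was chosen with earlier results of these data known. The series profiled RNA and ribosome footprints of C57BL/6 mouse testes at postnatal day 16, an age at which the most advanced germ cells are in meiosis. The control mice were *Mael*+/-, with 1 intact copy of the gene, and the mutants were *Mael*-/-, without Maelstrom, a protein needed for piRNA production. Each genotype had 3 testicular extracts, and each extract gave 1 RNA library and 1 footprint library, so that 4 groups of 3 replicates made 12 libraries. All extracts were treated with cycloheximide, which holds ribosomes on mRNA. The labels do not say how many animals an extract held, and p-values measure the spread between these extracts. Differences are relative to heterozygotes and not to wild-type mice.

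A Tudor domain is a small fold that binds methylated arginine or lysine in other proteins. In germ cells, Tudor proteins bind dimethylated arginines of PIWI proteins, which carry piRNAs, the small RNAs that silence transposons. They gather in germ granules, namely the cement between mitochondria, the processing body-like granules of fetal germ cells and, later, the chromatoid body of spermatids.

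Total gene counts ran from 13697267 to 27462358 in RNA libraries and from 7609932 to 13233565 in footprint libraries. *Mael* had 3800 to 5045 counts in heterozygous RNA and 0 to 2 in *Mael*-/- RNA, as labelled. All 9 Tudor genes passed the filter on low counts in every comparison. Heterozygous extract 1 stood apart before any test. Its 9 markers of pachytene spermatocytes, the germ cells in mid-meiosis, had a summed level of 856 CPM in RNA (CPM are counts scaled to the gene total of each library and its TMM factor), against 264 and 278 in the other heterozygous libraries and 217 to 247 in *Mael*-/- RNA. The footprint sums were 1279 in that extract, 396 and 472 in the other heterozygous libraries and 347 to 403 in *Mael*-/- libraries. Of 14 listed pachytene markers, 9 were tested in both assays. Markers of early meiotic prophase summed to 2359 CPM in RNA of extract 1, 1105 and 1189 in the other heterozygous and 1128 to 1553 in *Mael*-/- RNA, and to 3150.2, 1389 and 1458, and 1508 to 1669.9 CPM in footprints. Sertoli cell markers, 8 of 8 tested, summed to 5708 to 6500 CPM in heterozygous and 5760 to 6360 in *Mael*-/- RNA. Of 8 listed spermatid transcripts, *Prm1* and *Tnp2* had 0 counts over the 12 libraries, *Prm2* had 1, *Acrv1* 12, *Gapdhs* 38, *Odf1* 67, *Tnp1* 113 and *Spaca1* 948. Results on the Tudor genes are therefore given with and without heterozygous extract 1. In whole testes, fewer cells of a type and less RNA per cell cannot be told apart.

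The promoter sequences are shown for *Tdrd9*, for *Stk31*, the member with the highest level per kilobase, and for *Tdrkh*, the one with most footprints per RNA. The estimate of *Tdrd9* was lower in *Mael*-/- testes with and without that extract, as were those of *Tdrd1*, *Tdrd5*, *Tdrd6* and *Tdrd12*. Of the 9 genes, 7 had a promoter in the RefSeq table of GRCm38.p6, with 13 promoters of 300 bases in all (not *Rnf17* or *Tdrd6*). Each stretch ends at the base before the most 5′ annotated start of its gene. They are chr12:111971309-111971487 for *Tdrd9*, chr6:49395326-49395505 for *Stk31* and chr3:94413063-94413242 for *Tdrkh*, all on the plus strand. Capitals mark the E-box CACGTG in the first pair and the MYB motif TAACTG in the last.
Tdrd9: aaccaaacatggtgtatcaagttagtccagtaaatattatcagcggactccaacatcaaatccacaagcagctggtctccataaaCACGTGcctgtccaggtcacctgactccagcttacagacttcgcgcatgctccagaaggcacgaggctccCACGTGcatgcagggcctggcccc
Stk31: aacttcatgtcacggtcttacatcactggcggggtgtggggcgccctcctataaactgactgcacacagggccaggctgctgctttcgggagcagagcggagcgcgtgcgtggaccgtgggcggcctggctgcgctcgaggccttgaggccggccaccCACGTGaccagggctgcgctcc
Tdrkh: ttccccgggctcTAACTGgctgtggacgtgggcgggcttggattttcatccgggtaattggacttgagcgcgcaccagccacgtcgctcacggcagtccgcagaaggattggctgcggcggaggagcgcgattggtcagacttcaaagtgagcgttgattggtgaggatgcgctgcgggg
Both strands of the 300-base promoters were searched for the E-box CACGTG, the MYB motif TAACGG with its variants, which were TAACTG as well as CAACGG and also CAACTG, and for the E2F motif GCGGGAA. The E-box reads the same on both strands. The E-box was found in promoters of *Tdrd9*, *Stk31* and *Tdrd1*, 3 of the 7 genes, and in promoters of 8.09% of all 27025 genes of the table (7.15% of its 32851 promoters). *Tdrd9* had 2 copies, both in the stretch shown. A MYB motif was found in promoters of 4 of the 7 genes (*Tdrd5*, *Tdrd7*, *Tdrd12* and *Tdrkh*) and of 31.1% of all genes (28.3% of promoters). The E2F motif was found for *Tdrd5* alone among them, and for 5.29% of all genes (4.60% of promoters). A gene was counted if any of its promoters matched. The 7 genes had 13 promoters, against 32851 for all 27025 genes, so more promoters per gene were searched among them. A match describes these letters and is not evidence of binding.

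The 9 genes differed widely in level. Per kilobase of mRNA, *Stk31* was highest in *Mael*-/- RNA, with 30.3, 33.8 and 25.7 CPM per kb, and *Tdrd6* was lowest, with 0.143, 0.0913 and 0.108. Between them came *Rnf17* (mean 27.6 ± 2.83, SD, n = 3), *Tdrd7* (26.6 ± 1.21), *Tdrd9* (22.1 ± 1.19), *Tdrd1* (21.6 ± 0.769), *Tdrd5* (12.1 ± 0.452), *Tdrkh* (7.78 ± 0.907) and *Tdrd12* (3.48 ± 0.259). The libraries of *Stk31*, *Rnf17* and *Tdrd7* overlapped from each to the next, as did those of *Tdrd9* and *Tdrd1*. The other neighbours in this order did not overlap. In heterozygous RNA the same gene was highest, *Tdrd9* came second with 31.6 ± 6.65, and the ranges of neighbours overlapped from *Stk31* down to *Tdrd1* and *Tdrd5*, since the spread was larger. *Tdrkh*, *Tdrd12* and *Tdrd6* were the lowest in both genotypes, in this order.

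In footprints per kilobase of coding sequence, *Tdrkh* moved from the seventh place to the second. In *Mael*-/- libraries it had 43.6, 47.8 and 44.4 CPM per kb, below *Stk31* with 51.5, 52.3 and 51.8. The means of *Tdrd1* (36.3 ± 3.87, SD, n = 3) and *Rnf17* (34.8 ± 1.29) followed, with overlapping libraries. *Tdrd9* (31.7 ± 0.713), *Tdrd7* (28.3 ± 0.822), *Tdrd5* (13.9 ± 0.819), *Tdrd12* (6.62 ± 0.516) and *Tdrd6* (0.170 ± 0.0155) completed the order, each without overlap with the next. Levels between genes depend on the annotated lengths used here, the union of RefSeq curated transcripts.

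**Figure D1:**
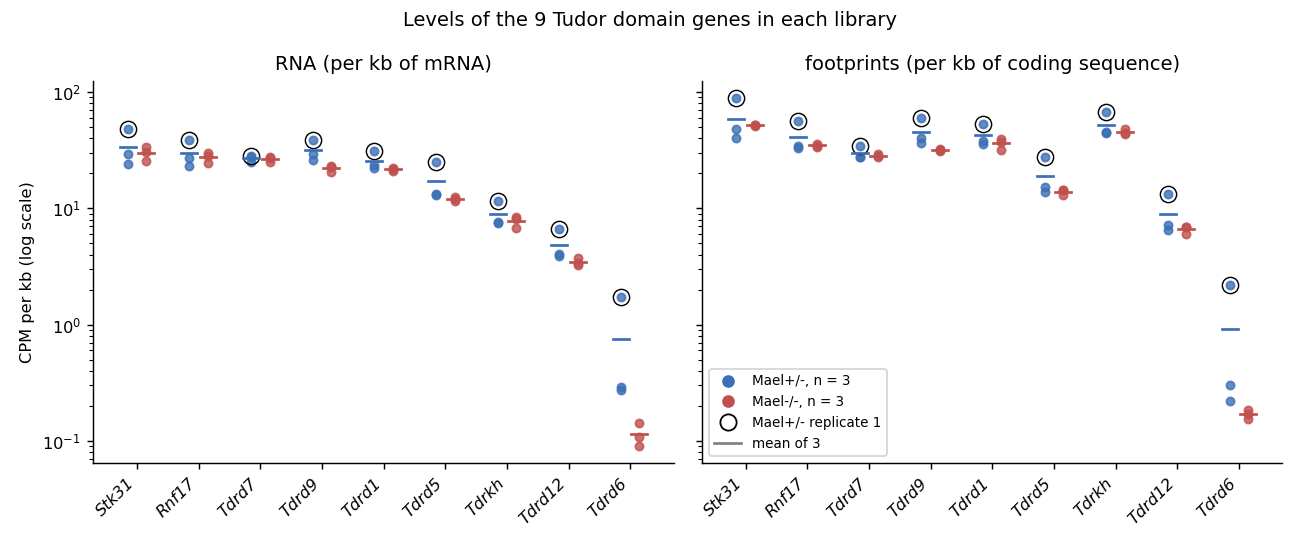
Level of each Tudor gene in CPM per kb on a log axis, for RNA (left, per kb of mRNA) and footprints (right, per kb of coding sequence), with a point for each library, a bar at the mean of 3 and a ring around heterozygous replicate 1. The ringed library is the highest of 6 for each of the 9 genes in both assays, and *Tdrd6* lies more than an order of magnitude below most of the others.

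Heterozygous extract 1 had the highest level of the 6 extracts for 9 of 9 genes in RNA and for 9 of 9 in footprints. The share of all genes that peaked in this extract was not computed, so these counts have no background. Sums of the pachytene, early prophase, other piRNA pathway and other germ granule lists peaked there too, in both assays. Sums of the spermatogonial, Sertoli cell, Leydig cell and other Tudor domain lists peaked elsewhere. The ratio of heterozygous extract 1 to the mean of the other heterozygous libraries ran from 1.06 (*Tdrd7*) to 6.07 (*Tdrd6*) in RNA, with a median of 1.55. In footprints it ran from 1.24 to 8.38 for the same genes, with a median of 1.68. The coefficient of variation over replicates was therefore 6.37 to 109% in heterozygous RNA and 3.55 to 23.3% in *Mael*-/- RNA. In footprints these ranges were 12.8 to 123% and 0.813 to 10.7%. The summed counts of the 9 genes came to 998, 690 and 684 CPM in heterozygous RNA, here before the TMM factor, and to 689, 689 and 633 in *Mael*-/- RNA. In footprints the sums were 1330, 848 and 840 against 828, 849 and 820. Apart from the first heterozygous extract, the sums of the genotypes thus lay close together.

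**Figure D2:**
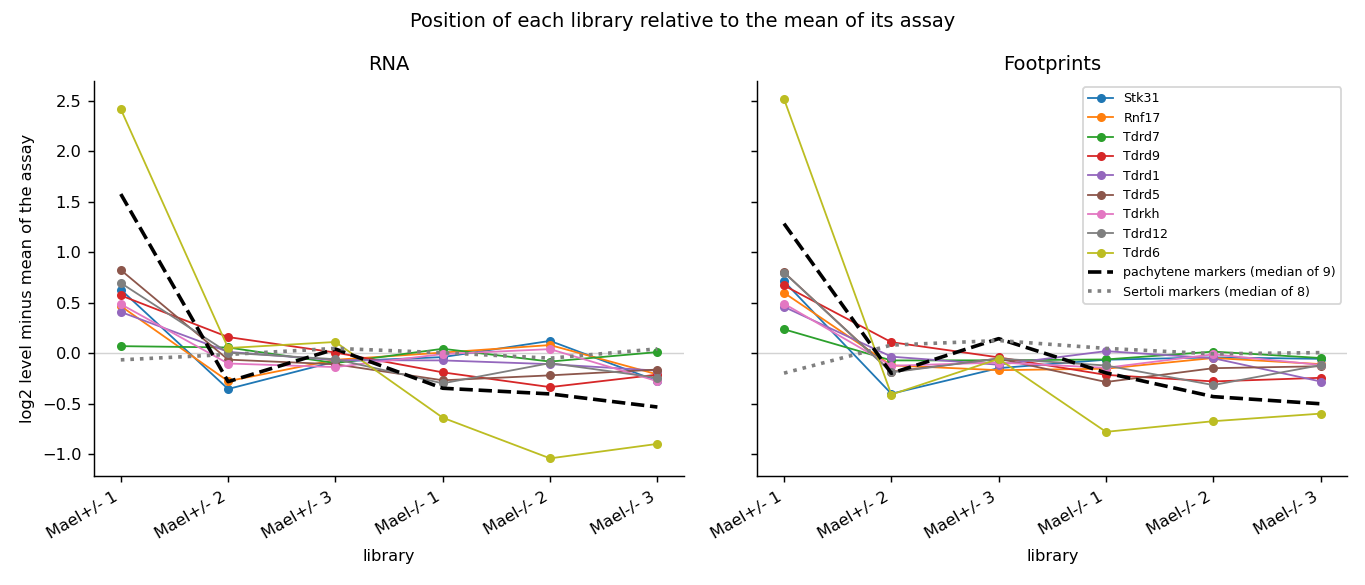
Log2 level of each Tudor gene in each library, relative to its mean over the 6 libraries of the assay, with the median of 9 pachytene markers (dashed) and 8 Sertoli cell markers (dotted), where lines only join the points of 1 gene or list. Heterozygous replicate 1 is the highest library for every Tudor gene and for the pachytene markers (median 1.58 in RNA and 1.28 in footprints), while the Sertoli cell markers lie within -0.07 to 0.05 in RNA and -0.20 to 0.13 in footprints, where that library is their lowest.

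*Tdrd1* and *Tdrkh* are tied to mitochondria in germ cells. TDRD1 binds the PIWI protein MILI in the cement between mitochondria. The gene (chromosome 19, 56826171 to 56870012, plus strand, mm10) has 26 exons and a protein of 1172 codons. Its RNA level was 169.8, 129 and 122 CPM in heterozygous replicates 1 to 3, and 122, 118 and 113 in *Mael*-/- ones. The genotypes did not overlap, but the lowest heterozygous and the highest *Mael*-/- library both rounded to 122 CPM. Its footprints were 188, 133 and 126 against 138, 132 and 112 CPM, and these overlapped.

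TDRKH sits on the outer mitochondrial membrane and holds PIWI proteins while the 3′ ends of piRNAs are trimmed. *Tdrkh* (chromosome 3, 94413243 to 94434854, plus strand) codes for 560 codons, the shortest protein of the 9. It overlaps *Oaz3* on the opposite strand, and whether strand was used in counting is not stated. It had 47.9, 31.7 and 30.9 CPM in heterozygous RNA and 33.9, 35.1 and 28.0 in *Mael*-/- RNA. In footprints it had 115, 74.7 and 76.4 against 73.7, 80.9 and 75.2 CPM. The genotypes overlapped in both assays, and only heterozygous replicate 1 lay apart.

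*Tdrd9* and *Tdrd12* carry helicase domains beside their Tudor domains. TDRD9 is a partner of the nuclear PIWI protein MIWI2, and TDRD12 is needed for the piRNAs that MIWI2 carries. *Tdrd9* (chromosome 12, 111971488 to 112068854, plus strand, 36 exons, 1383 codons) had 188, 141 and 127 CPM in heterozygous RNA and 110.4, 99.8 and 109 in *Mael*-/- RNA. All heterozygous libraries lay above all *Mael*-/- ones, the closest by a ratio of 1.15. In footprints it had 249, 168 and 152 CPM against 134, 128 and 132, again without overlap and with a closest ratio of 1.13. *Tdrd9*, with at least 1113 counts in each library, was thus separated by genotype in both assays. The gene overlaps *Rd3l* on the opposite strand. *Tdrd12* (chromosome 7, 35466941 to 35537784, minus strand, 31 exons, 1277 codons) had 42.3, 26.0 and 24.9 CPM in heterozygous RNA and 21.0, 24.2 and 21.8 in *Mael*-/- RNA. Its footprints were 51.0, 25.4 and 28.0 against 26.7, 23.3 and 26.7 CPM. The genotypes were separated in RNA by a ratio of 1.03 and overlapped in footprints.

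*Tdrd5*, *Tdrd6* and *Tdrd7* code for proteins of the chromatoid body, which forms in late meiosis and in spermatids. TDRD5 and TDRD7 also carry LOTUS domains, which bind RNA helicases or RNA. *Tdrd5* (chromosome 1, 156255296 to 156304304, minus strand, 18 exons, 1040 codons) had 86.7, 46.6 and 45.1 CPM in heterozygous RNA and 40.4, 41.8 and 43.5 in *Mael*-/- RNA, separated by a ratio of 1.04. In footprints it had 86.9, 43.6 and 47.8 against 40.6, 44.7 and 45.3 CPM, which overlapped. *Tdrd7* (chromosome 4, 45965027 to 46034766, plus strand, 17 exons, 1119 codons) varied least of the 9 over heterozygous replicates, with a CV of 6.37% in RNA and 12.8% in footprints. It had 111, 110.1 and 98.9 CPM in heterozygous RNA and 109, 99.9 and 107 in *Mael*-/- RNA. Its footprints were 115, 92.5 and 92.6 against 93.2, 98.3 and 94.1 CPM, with overlap in both assays.

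TDRD6, with 2135 codons the longest protein of the 9, is made of repeated Tudor domains and is needed to build the chromatoid body. *Tdrd6* (chromosome 17, 43615334 to 43631846, minus strand, 5 exons) had 279, 53 and 54 counts in heterozygous RNA and 14, 13 and 21 in *Mael*-/- RNA. In CPM these were 12.1, 1.94 and 2.05 against 1.01, 0.645 and 0.764. Heterozygous replicate 1 was far above all others, yet the other heterozygous libraries also lay above each *Mael*-/- library, the closest by a ratio of 1.92. Footprints held 133, 11 and 20 counts against 13, 11 and 10, or 14.1, 1.42 and 1.95 against 0.985, 1.10 and 1.18 CPM. The genotypes did not overlap there either, with a closest ratio of 1.20 between libraries of 11 and 10 counts.

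*Rnf17* and *Stk31* code for proteins that pair Tudor domains with a domain of another kind. RNF17 has a RING finger and restrains the amplification of piRNAs in meiotic cells, and STK31 has a kinase-like domain. *Rnf17* (chromosome 14, 56402650 to 56525032, plus strand, 37 exons, 1640 codons) had 201, 120.1 and 139 CPM in heterozygous RNA and 146, 154 and 126 in *Mael*-/- RNA. Its footprints were 279, 169 and 164 against 165, 178 and 171 CPM. *Stk31* (chromosome 6, 49395506 to 49469506, plus strand, 24 exons, 1018 codons) had 158, 79.6 and 96.3 CPM in heterozygous RNA and 99.3, 111 and 84.2 in *Mael*-/- RNA. In footprints it had 269.9, 124 and 148 CPM against 157, 159.8 and 158. For both genes the *Mael*-/- libraries lay between heterozygous replicate 1 and the lowest heterozygous replicate in both assays.

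The first comparison asked whether Tudor gene RNA differed between the genotypes. The estimate was lower in *Mael*-/- testes for 9 of 9 genes, and 0 were called at an adjusted p under 0.05 by edgeR's quasi-likelihood test. Over all 14647 genes tested, 0.116% were called in either direction and 52.3% had a lower estimate. The median log2 fold change was -0.25 over the 9 genes and -0.01 over all genes. An unadjusted p under 0.05 was found for 4 of the 9 (*Tdrd5*, *Tdrd6*, *Tdrd9* and *Tdrd12*), against 3.26% of all genes in that direction. Libraries did not overlap for 5 of the 9, the same genes and *Tdrd1*, against 5.67% of all genes lower without overlap. DESeq2 called 0 of the 9, with 4 at an unadjusted p under 0.05, and limma voom with quality weights called 0, with 2.

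*Tdrd6* had the largest estimate, -2.74 in log2 units (SE 0.72, edgeR adjusted p 0.586). That of *Tdrd9* was -0.51 (SE 0.14, edgeR adjusted p 0.600), or 0.701-fold. *Tdrd5* had -0.50 (SE 0.22), *Tdrd12* -0.47 (SE 0.19) and *Tdrd1* -0.25 (SE 0.12), with edgeR adjusted p of 0.912, 0.896 and 0.939. For the others the estimate was close to its SE or below it, with -0.19 (SE 0.17) for *Tdrkh*, -0.18 (SE 0.22) for *Stk31*, -0.11 (SE 0.17) for *Rnf17* and -0.02 (SE 0.09) for *Tdrd7*.

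Without heterozygous RNA replicate 1, the number of genes with a lower estimate went from 9 to 5, against 51.4% of all genes. The median came to -0.09, and 0 of the 9 were called, against 23 lower and 36 higher of all 14647 genes. *Tdrd6* (-1.33, SE 0.31, edgeR adjusted p 0.0965) and *Tdrd9* (-0.33, SE 0.09, edgeR adjusted p 0.237) were the 2 that kept an unadjusted p under 0.05. Those of *Tdrd5* (-0.13), *Tdrd12* (-0.19) and *Tdrd1* (-0.09) shrank, and *Tdrkh* (0.04), *Rnf17* (0.13), *Stk31* (0.16) and *Tdrd7* (0.01) had estimates above 0. Leaving out *Mael*-/- RNA replicate 1 or 3 also gave 2 genes at an unadjusted p under 0.05. For fits with 1 library left out, the share of all genes at that level is not given here, in RNA or in footprints. The pachytene and early prophase markers moved with heterozygous extract 1, and their part in the difference was not tested.

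**Figure D3:**
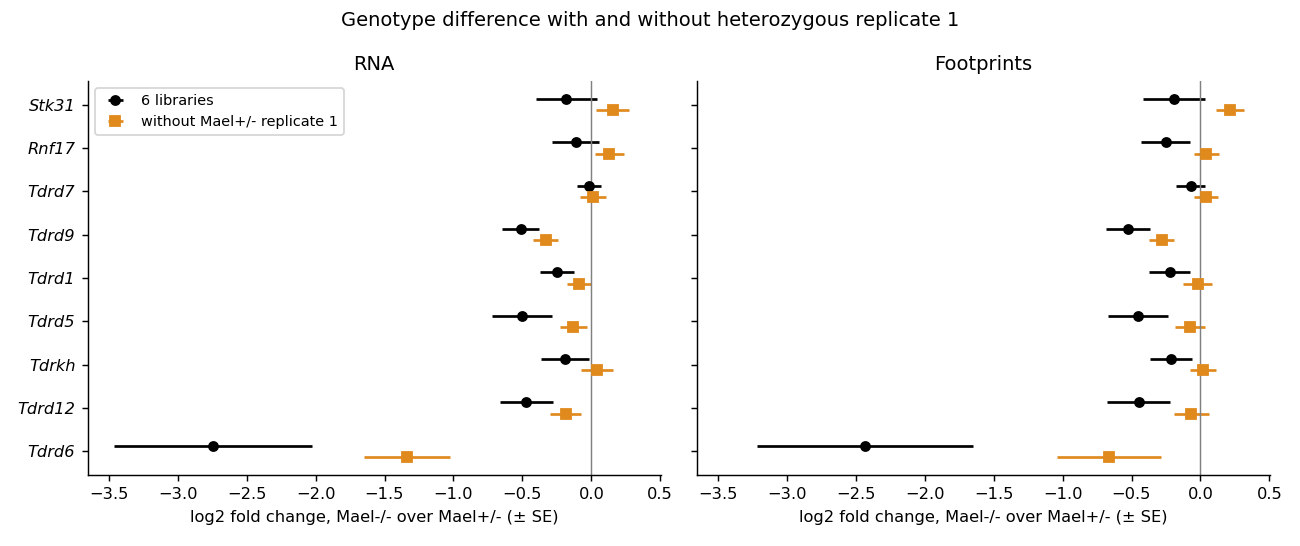
Log2 fold change of *Mael*-/- over *Mael*+/- with its SE for each Tudor gene in RNA (left) and footprints (right), from the edgeR fit of 6 libraries (black circles) and of 5 libraries without heterozygous replicate 1 (orange squares). With 6 libraries 9 of 9 estimates lie below 0 in each assay, and without that replicate 5 of 9 do.

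The same comparison in footprints asked whether ribosome-bound sequence of these genes differed. Again 9 of 9 estimates were lower in *Mael*-/- testes, against 52.5% of all 13500 genes, with a median of -0.25 over the 9 genes and -0.01 over all. edgeR called 0 of the 9, against 0.0593% of all genes, and an unadjusted p under 0.05 was found for 2, *Tdrd6* and *Tdrd9* (2.79% of all genes in that direction). The libraries of the same genes did not overlap (4.87% of all genes). *Tdrd6* had -2.43 (SE 0.78, edgeR adjusted p 0.974) and *Tdrd9* -0.53 (SE 0.16, edgeR adjusted p 0.924), or 0.694-fold. *Tdrd5* (-0.45, SE 0.22) and *Tdrd12* (-0.45, SE 0.23) came next, and the remaining 5 estimates lay between -0.25 and -0.07. DESeq2 called 0 of the 9, with 4 at an unadjusted p under 0.05, and limma voom called 0, with 2.

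Without heterozygous footprint replicate 1, 5 of 9 estimates were lower, against 50.5% of all genes, and the median was -0.02. Of the 9 genes 0 were called, against 5 lower and 12 higher of all 13500. *Tdrd9* had -0.28 (SE 0.09, edgeR adjusted p 0.561) and was the 1 Tudor gene left at an unadjusted p under 0.05. *Tdrd6*, with 10 to 20 counts in the 5 remaining libraries, had -0.66 (SE 0.38, edgeR adjusted p 0.846). *Stk31* went from -0.19 to 0.21 (SE 0.10, edgeR adjusted p 0.802). Without heterozygous replicate 2 or 3, 4 genes had an unadjusted p under 0.05. RNA and footprints came from the same extracts, so that these values do not add independent animals.

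The next comparison asked whether footprints differed beyond RNA, that is, whether the translation efficiency of the Tudor genes differed between genotypes. Of the 9 genes, 0 were called by edgeR and 0 had an unadjusted p under 0.05, with DESeq2 and limma voom giving 0 and 0 as well. Over all 14386 genes, 0.0% were called, and 0.542% had an unadjusted p under 0.05. The estimate was lower for 5 and higher for 4 of the 9. Without pairing, the SE ran from 0.13 (*Tdrd7*) to 1.27 (*Tdrd6*).

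RNA and footprints of each extract could be paired, and with the extract as a term the estimates became more precise. No member had an unadjusted p under 0.05 then, against 2.18% of all genes. The estimate was 0.03 for *Tdrd1* (95% confidence interval -0.17 to 0.23), 0.00 to 2 decimals for *Tdrd9* (-0.20 to 0.20) and -0.02 for *Tdrkh* (-0.24 to 0.21). It was 0.06 for *Tdrd5* (-0.16 to 0.27), -0.05 for *Tdrd7* (-0.26 to 0.17) and 0.05 for *Tdrd12* (-0.23 to 0.32). For *Stk31* it was 0.02 (-0.20 to 0.24) and for *Rnf17* -0.12 (-0.34 to 0.09). For these 8 genes no interval reached beyond -0.34 or 0.32. The interval of *Tdrd6*, -0.42 to 1.17 around 0.37, was wider, and a difference of 2-fold was within it.

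The last comparison set footprints against RNA within each genotype, where a value above 0 means a larger share of footprint counts than of RNA counts. RNA was counted over whole mRNAs and footprints over coding sequence, so the value of a gene also holds the coding share of its mRNA. In *Mael*-/- testes 4 of the 9 genes were called higher by edgeR (27.8% of all 14035 genes) and 0 lower. *Tdrkh* had a log2 value of 1.24 (SE 0.09, edgeR adjusted p 8.61e-10), or 2.37-fold, *Stk31* 0.69 (SE 0.09, edgeR adjusted p 1.89e-06), *Tdrd9* 0.30 (SE 0.08, edgeR adjusted p 0.00166) and *Rnf17* 0.27 (SE 0.08, edgeR adjusted p 0.00894). The call of *Rnf17* was lost without *Mael*-/- extract 3 (0.18, edgeR adjusted p 0.119). *Tdrd7* had the lowest value, -0.15 (SE 0.08, edgeR adjusted p 0.0911). With the extract as a term the number called was again 4, against 29.6% of all genes.

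In heterozygous testes only *Tdrkh* was called in the unpaired fit (1.27, SE 0.22, edgeR adjusted p 0.00122, 2.42-fold), against 18.8% of all 14259 genes called higher. With the extract as a term 4 were called higher (29.3% of all genes), namely *Tdrkh* (1.27, SE 0.08), *Stk31* (0.69, SE 0.07), *Rnf17* (0.40, SE 0.08) and *Tdrd9* (0.31, SE 0.07), with edgeR adjusted p of 2.21e-16, 4.67e-10, 1.63e-05 and 0.000326. Without extract 1 the unpaired fit called 3 higher (*Tdrkh*, *Stk31* and *Rnf17*), against 2766 of all 14225 genes. The value of *Tdrkh* ran from 1.26 to 1.28 over the fits that each left out 1 heterozygous extract.

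The coding share of the mRNA was lowest for *Tdrkh*, 40.7%, and highest for *Rnf17*, 95.6%. Per kilobase, footprints over RNA of *Tdrkh* came to a log2 ratio of 2.56, 2.53 and 2.60 in heterozygous extracts and 2.42, 2.50 and 2.72 in *Mael*-/- extracts, or 5.91-fold and 5.84-fold on average. It was the highest of the 9 in each of the 6 extracts, and all others lay below 1.1. *Tdrd12*, whose coding share is 60.2%, followed with 1.82-fold and 1.90-fold. *Stk31* had 1.72-fold and 1.74-fold, *Tdrd1* 1.64-fold and 1.67-fold, *Tdrd9* 1.43-fold in both genotypes, and *Rnf17* 1.38-fold and 1.26-fold. *Tdrd5* (1.11-fold and 1.16-fold) and *Tdrd7* (1.10-fold and 1.07-fold) were near 1. *Tdrd6* had 1.03-fold and 1.51-fold, with an SD over extracts of 0.34 and 0.43 on the log2 scale, and its extracts overlapped between genotypes.

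**Figure D4:**
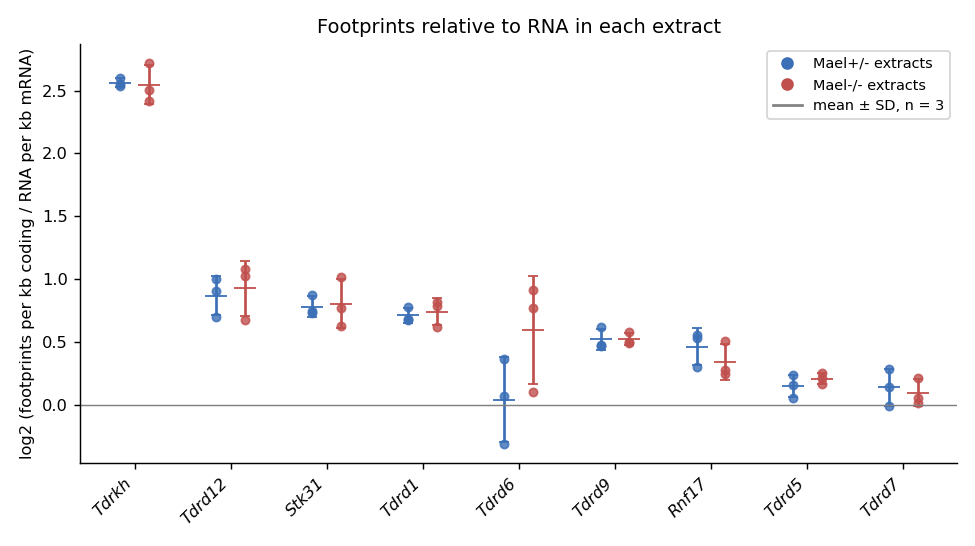
Log2 ratio of footprints per kb of coding sequence to RNA per kb of mRNA for each Tudor gene in each extract, with mean ± SD over 3 extracts in each genotype. *Tdrkh* lies near 2.5 in all 6 extracts while the other genes lie below 1.1, and the genotypes overlap for every gene.

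Other genes of the piRNA pathway were listed beside the Tudor genes. Of 16 such genes, 15 were tested in RNA, and 13 had a lower estimate in *Mael*-/- testes, with a median of -0.18 and 0 called. *Piwil1*, which codes for the PIWI protein MIWI of pachytene cells, had 78.9, 11.0 and 13.9 CPM in heterozygous and 8.03, 8.08 and 6.80 in *Mael*-/- RNA. Its estimate was -2.18 (SE 0.65, edgeR adjusted p 0.722), and -0.71 without heterozygous RNA replicate 1 (edgeR adjusted p 0.0774). *Mov10l1*, the RNA helicase that feeds piRNA precursors into processing, had -0.45 (SE 0.17), *Pld6*, the mitochondrial nuclease of piRNA processing, -0.40 (SE 0.18), and *Piwil2*, which codes for MILI, -0.33 (SE 0.14). These 4 had an unadjusted p under 0.05. *Piwil4*, which codes for MIWI2, had the highest estimate, 0.11 (SE 0.20). Without heterozygous RNA replicate 1 the median of the list was -0.05, with 11 of 15 lower. In footprints 13 of 15 had a lower estimate, with a median of -0.25 and 0 called. An unadjusted p under 0.05 was found for 4 of them by edgeR, against 2.79% of all genes in that direction. Without heterozygous footprint replicate 1 the footprint median was -0.06, with 8 of 15 lower.

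Tudor domain genes other than these 9 had a median estimate near 0. Of 13 listed, 11 were tested, 7 with a lower estimate, and their median was -0.00 in RNA and -0.04 in footprints, with 0 called and, in RNA, 1 at an unadjusted p under 0.05. *Tdrd3*, which codes for a partner of topoisomerase 3 beta, was that gene and had the lowest RNA estimate, -0.23 (SE 0.10, edgeR adjusted p 0.904), and *Setdb1*, a histone H3 lysine 9 methyltransferase, the highest, 0.15 (SE 0.09, edgeR adjusted p 0.982). Other germ granule proteins, 10 of 10 tested in RNA, had 8 lower estimates, a median of -0.09 and 0 called, with 1 at an unadjusted p under 0.05, *Ddx25*. This gene, a helicase of the chromatoid body, had -0.38 (SE 0.16, edgeR adjusted p 0.896), *Tsks* -0.56 (SE 0.43) and *Nanos2*, of spermatogonial stem cells, 0.65 (SE 0.43). *Nanos2* had only 5 to 20 counts in each RNA library, and *Tsks* 14 to 71. Without heterozygous RNA replicate 1 this list had 4 of 10 lower and a median of 0.02. *Ddx25* then had -0.16, *Tsks* 0.07 and *Nanos2* 0.29. Pachytene markers had 10 of 10 lower estimates with a median of -1.14, and early meiotic prophase markers 6 of 10 with a median of -0.19. Without heterozygous RNA replicate 1 these medians were -0.31 and 0.32, and early prophase markers had 2 of 10 lower. Called without it were the pachytene markers *Adam2* (-1.96, edgeR adjusted p 0.00273) and *Hspa2* (-0.44, edgeR adjusted p 0.0485), both lower in *Mael*-/- RNA, and the early prophase marker *Rad51ap2* (1.12, edgeR adjusted p 0.00631), higher. With all libraries the median was -0.07 for spermatogonial, -0.00 for Sertoli, 0.01 for Leydig and 0.19 for peritubular and macrophage markers, with 0 called, and 3 of 8 spermatid markers had enough counts to be tested.

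Correlations among the Tudor genes depended on that extract for many pairs and not for all. Over the 6 RNA libraries, Pearson's r of the log2 levels had a median of 0.80 over the 36 pairs of members (0.133 to 0.998). Over the 5 libraries without heterozygous RNA replicate 1 the median was 0.03 (-0.76 to 0.99). The pair with the lowest value there was *Tdrd5* and *Rnf17*, with -0.76. The pairs with the highest were *Rnf17* and *Stk31*, with 0.998 over 6 and 0.992 over 5 libraries, and *Tdrd6* and *Tdrd9*, with 0.972 and 0.938. These are descriptions over few libraries that share depth and cell mixture.

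The genes most like the mean pattern of the 9 members, among 13446 tested in both assays, were *Ttll13*, *Nup210l*, *A330021E22Rik*, *Brdt* and *Zscan2*. Their mean r over 6 RNA and 6 footprint libraries was 0.99 each. *Brdt*, a chromatin reader of meiotic and later germ cells, had 129, 46.7 and 49.0 CPM in heterozygous RNA and 53.6, 46.1 and 38.0 in *Mael*-/- RNA. Each of the 5 genes was highest in heterozygous extract 1, and without it their mean r fell to between 0.365 and 0.758.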

How the data were processed

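RNA and ribosome footprints of 12 libraries were analysed. Per the study's methods, footprint reads were clipped with FASTX-Toolkit and freed of ribosomal DNA with Bowtie 1.2.2, and reads of both assays were aligned to mm10 with STAR 2.6.0c and counted with featureCounts of Subread 1.6.4, over mRNAs for RNA and coding sequence for footprints. Strand setting, reads with several matches and duplicate collapsing are not stated. The authors deposited raw counts without normalization. Their deposited result tables (DESeq2 1.24.0 fold changes and p-values) were not used, and neither were 5138235 repeat copies.

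The main test was edgeR 4.0.16 under R 4.3.3 (quasi-likelihood F-tests, TMM factors within each assay, default filter on low counts, Benjamini-Hochberg adjustment over all genes tested, called under 0.05). Translation efficiency was the interaction of genotype and assay. Alternatives were DESeq2 1.42.0, limma 3.58.1 voom with quality weights, median-of-ratios factors, other filters, a replicate block and leaving out each library. Tested on simulated data in which 200 genes differed, the RNA comparison recovered 83% of 2-fold and 95% of 4-fold differences with 8.25% false calls, and the footprint comparison 78% and 98% with 5.88%. Unpaired translation efficiency recovered fewer, 51% and 88% with 3.47%. Footprints against RNA in heterozygotes recovered 70% and 94% with 7.34%. The simulation drew each gene independently, without a shift shared by the genes of an extract. Groups, replicates and age were taken from the labels, which give no litter, batch or date.

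RNA and footprints of one number came from one extract. Their deviations from the group means correlated with r of 0.590 to 0.752 in heterozygous and 0.204 to 0.227 in *Mael*-/- extracts over 14386 genes, all above 0.1, and 12 of 12 libraries were most like their own partner, so the extract was also fitted as a term. The 9 Tudor genes, the other lists and the promoter motifs were chosen with earlier results of these data known. Besides all members, the text names *Mael*, the 5 genes most like the members and, from the gene lists, those with the highest and lowest RNA estimate or an unadjusted p under 0.05. Cell type markers that met this rule are given by list, save 3 called without heterozygous RNA replicate 1. These, *Clu* and *Amh* were chosen after their values were seen. Spermatid transcripts and overlapping genes are named beside this rule. Lengths and promoters are of RefSeq, GRCm38.p6.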

Additional observations from a re-analysis of the deposited data

How the results depend on the processing

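Among the values of single Tudor genes recomputed under the alternatives, 457 changed neither sign nor call, 33 changed sign, 11 were newly called and 1 lost its call. The labels link *Mael*-/- and heterozygous replicates by number alone, and whether a number stands for a shared litter or batch is not stated. Their deviations correlated with r of -0.012 to 0.196. This r was above 0.1 for RNA numbers 1 (0.196) and 3 (0.134) and footprint number 2 (0.186). The replicate block across genotypes was an alternative and is given here alone. With it 47 genes were called in RNA and 22 in footprints, and *Tdrd6* was the 1 Tudor gene called in RNA (-2.26, edgeR adjusted p 0.0427). In RNA, DESeq2 called 64 genes, limma voom 35 and the filter at a mean of 50 counts 4, against 17, and leaving out 1 library gave 2 to 59. In footprints DESeq2 called 26 and that filter 1, against 8, with 2 to 17 when 1 library was left out. The number of Tudor genes at an unadjusted p under 0.05 in RNA was 2 with voom and 2 to 5 with 1 library left out. In footprints it was 4 with DESeq2, 4 without a filter, 1 at a mean of 50 counts and 1 to 4 with 1 library left out. Tudor genes with a lower estimate numbered 5 to 9 with 1 library left out in each assay.

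In RNA the values that changed sign were *Rnf17* (0.046) and *Stk31* (0.052) with voom. With 1 library left out the RNA estimates ran from -0.072 to 0.020 for *Tdrd7*, -0.30 to 0.041 for *Tdrkh*, -0.26 to 0.13 for *Rnf17* and -0.37 to 0.16 for *Stk31*, and the footprint estimates from -0.12 to 0.040, -0.32 to 0.018, -0.39 to 0.042 and -0.40 to 0.21 in the same order. In translation efficiency voom gave 8 lower estimates, among them *Tdrd1* (-0.015), *Tdrd5* (-0.052) and *Tdrd12* (-0.052). Leaving out 1 extract gave 2 to 6 lower estimates, with *Tdrd1* from -0.0090 to 0.077, *Tdrd7* from -0.13 to 0.030, *Tdrd9* from -0.044 to 0.050, *Tdrd12* from -0.044 to 0.15, *Tdrkh* from -0.11 to 0.045 and *Stk31* from -0.12 to 0.080. With the replicate block by extract *Stk31* had 0.018, and with the block but without heterozygous replicate 1, an alternative chosen after seeing the data, 2 were lower, and *Tdrd7* had 0.027, *Tdrd9* 0.050 and *Stk31* 0.066.

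In footprints against RNA of heterozygotes, the Tudor genes called numbered 2 with voom, 4 with the block by extract and 1 to 3 with 1 extract left out. Those at an unadjusted p under 0.05 numbered 2 with voom, 2 without a filter, 4 with the block and 1 to 3 with 1 extract left out. Leaving out 1 extract gave 1 to 2 lower values, with *Tdrd5* from -0.025 to 0.029 and *Tdrd6* from -0.21 to 0.18, and 4116 to 6917 genes called of all tested. With the block and without heterozygous replicate 1, 4 were called, 4 had an unadjusted p under 0.05, 2 were lower and *Tdrd6* had -0.21. Likeness to the members without that extract was 0.488 for *Ttll13*, 0.719 for *Nup210l*, 0.556 for *A330021E22Rik*, 0.365 for *Brdt* and 0.758 for *Zscan2*. The block by extract changed no call in *Mael*-/- libraries or in translation efficiency. The causes of these differences were not tested. *Tdrd6* had at most 21 counts in each *Mael*-/- library, while the other genes had at least 197 in every library. Its RNA estimate had an SE of 0.72 with all libraries and of 0.31 without heterozygous replicate 1. The parts of low counts and of that replicate in its spread were not tested.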
